A study of Bos taurus with 9 samples.

Results

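The muscle miRNAs bta-miR-1, bta-miR-133a, bta-miR-133b, bta-miR-490 and bta-miR-499 were followed in rectal tissue of beef steers. They were chosen by name, as 5 rows of the 515 miRNAs in the deposited table, and all 5 passed the filter for testing, which 245 miRNAs passed (at least 5 CPM in at least 4 libraries). Small RNA libraries came from 5 super-shedders (SS), which had shed E. coli O157 above 10000 colony-forming units in each g of feces, and from 4 non-shedders (NS), pen-mates that were negative for this bacterium. All were British x Continental feedlot steers, of unstated age. Each library was 1 steer, and the purpose was to find miRNAs that differ with super-shedding. The tissue was 2 biopsies per steer taken just above the rectal-anal junction and ground to powder. By the study's account the whole tissue was profiled, lymphoid structures under the epithelium included, and SS had been identified days before slaughter, when not all of them still shed at that level.

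miRNAs are short RNAs that pair with mRNAs and repress them, mostly through their seed, the bases 2 to 8. The miR-1 and miR-133 families are the classic miRNAs of muscle and are induced by the myogenic factors SRF, MEF2 and MyoD. In mice and cultured myoblasts, miR-1 favors differentiation of muscle cells, and miR-133 favors their proliferation. miR-490 lies in the gene of CHRM2, a muscarinic acetylcholine receptor found in gut smooth muscle. miR-499 lies in MYH7B, a myosin heavy chain gene of slow striated muscle and heart. The rectal wall holds smooth muscle in its muscularis mucosae and muscle coats, and striated muscle belongs to the sphincter further down.

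The RefSeq gene table for cattle (assembly ARS-UCD2.0, used here for names and neighbors only) placed MIR1-1 beside MIR133A-1 and MIR1-2 beside MIR133A-2, the second pair inside the span of MIB1. Mature bta-miR-1 and bta-miR-133a thus each come from 2 genes that lie in shared clusters. MIR133B lay beside MIR206, MIR490 inside CHRM2 and MIR499 inside MYH7B. A further gene, MIR133C, lay within the same cluster as MIR133A-1, and its product bta-miR-133c had 1 read in all, in SS steer 274. Because bta-miR-133a and bta-miR-133b are nearly identical in sequence, some reads of the rarer bta-miR-133b may belong to bta-miR-133a, and its values are uncertain for that reason.

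The library totals recovered from the values were 1486495 to 6314556 reads in SS and 650726 to 2316164 reads in NS (exact permutation p = 0.0556, two-sided), so low miRNAs were measured less precisely in NS. Values are given in CPM, reads scaled to that total. In NS steer 242 the summed values exceeded the nominal total by 8.94%, against 2.49% to 3.54% in the other libraries. The most abundant miRNA, bta-miR-143, took 22.1% to 73.1% of a library in SS and 30.4% to 62.5% in NS, and all other CPM share the remainder. The median tested miRNA was lower in SS by a log2 difference of -0.70 in the deposited values, against -0.05 after TMM scaling (trimmed mean of M values, a scaling to the bulk of the miRNAs).

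Together the 5 muscle miRNAs made up a small share of the rectal miRNAs, and the share varied widely between steers. They summed to 2891 CPM in SS steer 274, 648 CPM in steer 287, 217 CPM in steer 294, 1214 CPM in steer 299 and 1466 CPM in steer 310. In NS the sums were 2257 CPM in steer 108, 1096 CPM in steer 152, 1249 CPM in steer 165 and 529.8 CPM in steer 242. The SS mean was 1287 ± 1020 CPM (SD, n = 5) and the NS mean 1283 ± 720 CPM (SD, n = 4), and the highest and the lowest sum were both in SS (exact permutation p = 0.762 on the log2 scale). In whole tissue, fewer muscle cells in a biopsy and less of these miRNAs per cell cannot be told apart.

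The order of the members was nearly the same in every library. bta-miR-133a was the most abundant of the 5 in 9 of 9 libraries, with 79.7% ± 5.05 of their sum over the 5 SS libraries (mean ± SD) and 86.5% ± 2.04 over the 4 NS libraries, and it ranked 53rd by mean among all miRNAs of the table. bta-miR-490 came second in 9 of 9 libraries. bta-miR-1 and bta-miR-133b were neighbors that did not separate, with bta-miR-1 the higher in 3 of 5 SS libraries and 2 of 4 NS libraries. bta-miR-499 was lowest in all 9, tied with bta-miR-1 in SS steer 294 at 10 reads each. Levels of different miRNAs in such libraries also depend on how well the kit captures each sequence.

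**Figure D1:**
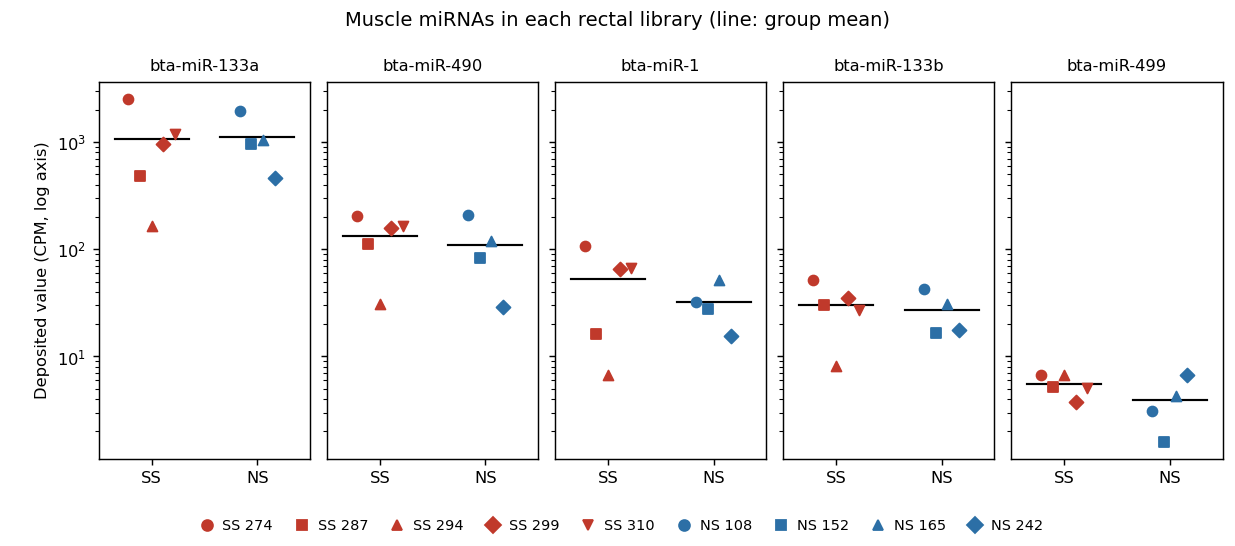
Deposited value (CPM, log axis) of the 5 muscle miRNAs in each library, SS (n = 5, red) left of NS (n = 4, blue), with a marker for each steer and a line at the group mean. The groups overlapped for all 5, and SS steer 294 was the lowest library of all for bta-miR-133a, bta-miR-1 and bta-miR-133b.

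bta-miR-133a, which in mouse limits the smooth muscle program through SRF, had 2522 CPM in SS steer 274, 485 CPM in steer 287, 165 CPM in steer 294, 953 CPM in steer 299 and 1201 CPM in steer 310. In NS it had 1969 CPM in steer 108, 967 CPM in steer 152, 1043 CPM in steer 165 and 460.6 CPM in steer 242. The SS range therefore enclosed the NS range, and the span within SS, 15.3-fold, was wider than the 4.27-fold span in NS. The log2 difference was -0.39 (SE 0.73, 95% interval -1.99 to 1.21, limma adjusted p = 0.729). It turned to 0.15 without SS steer 294 to 0.29 with TMM scaling and to 0.88 to 0.90 in the count tests, so no direction can be given.

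bta-miR-490 had 204.4 CPM in SS steer 274, 112 CPM in steer 287, 30.9 CPM in steer 294, 157 CPM in steer 299 and 166 CPM in steer 310, against 211 CPM in NS steer 108, 83.2 CPM in steer 152, 119 CPM in steer 165 and 29.0 CPM in steer 242. Both extremes lay in NS, and each group had 1 low library, SS steer 294 and NS steer 242. The log2 difference was 0.35 (SE 0.69, 95% interval -1.15 to 1.86, limma adjusted p = 0.738). Without NS steer 242 it was -0.17, with TMM scaling it was 1.02 (limma adjusted p = 0.741), and on the recovered reads it was 1.14 in both edgeR tests and 1.13 in DESeq2.

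bta-miR-1 had 107 CPM in SS steer 274, 16.2 CPM in steer 287, 6.73 CPM in steer 294, 66.1 CPM in steer 299 and 66.8 CPM in steer 310. NS held 32.3 CPM in steer 108, 27.9 CPM in steer 152, 51.8 CPM in steer 165 and 15.6 CPM in steer 242. SS thus fell into 3 libraries above every NS library, 1 below every NS library and 1 within their range. The value of SS steer 294 rests on 10 reads (95% Clopper-Pearson interval 3.23 to 12.4 CPM, counting error only), and that of NS steer 108 on 21 reads (20.0 to 49.3 CPM). The log2 difference was 0.27 (SE 0.77, 95% interval -1.40 to 1.95, limma adjusted p = 0.821), it was 0.83 without SS steer 294 and -0.12 without SS steer 274, and it was also below 0 without NS steer 242 (-0.02). With TMM scaling it was 0.94 (limma adjusted p = 0.746), and on the recovered reads it was 1.59 in both edgeR tests and 1.58 in DESeq2 (adjusted p = 0.590, 0.583 and 0.454).

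bta-miR-133b, the member clustered with miR-206, had 51.1 CPM in SS steer 274, 30.3 CPM in steer 287, 8.07 CPM in steer 294, 34.8 CPM in steer 299 and 27.1 CPM in steer 310, against 43.0 CPM in NS steer 108, 16.6 CPM in steer 152, 30.7 CPM in steer 165 and 17.8 CPM in steer 242. Only SS steer 274 lay above, and only SS steer 294 below, the NS range. The log2 difference of 0.06 (SE 0.57, 95% interval -1.18 to 1.30, limma adjusted p = 0.966) was the smallest in size of the 5 in the deposited values. With TMM scaling it was 0.72 and in DESeq2 0.99, and in each of these bta-miR-133a was the smallest. It took values below 0 without SS steer 274, without SS steer 299, without NS steer 152 or without NS steer 242 (lowest -0.18).

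bta-miR-499 was near the limit of these libraries. It had 6.76, 5.16, 6.73, 3.76 and 5.07 CPM in SS steers 274, 287, 294, 299 and 310, from 30, 14, 10, 12 and 32 reads. In NS steers 108, 152, 165 and 242 it had 3.07, 1.61, 4.32 and 6.69 CPM, from 2, 3, 10 and 6 reads. The groups overlapped, and the counting interval of steer 108 alone (NS, 95% Clopper-Pearson, 0.372 to 11.1 CPM) held every SS value. The log2 difference was 0.49 (SE 0.43, 95% interval -0.46 to 1.43, limma adjusted p = 0.510, exact permutation p = 0.175), and it was 0.22 without NS steer 152 and 0.74 without NS steer 242. On the recovered reads it was 1.28 in both edgeR tests and 1.30 in DESeq2. bta-miR-499 varied least in SS, 1.80-fold, where bta-miR-1 varied 15.9-fold and bta-miR-133a 15.3-fold. This did not hold in NS, where bta-miR-499 varied 4.16-fold, bta-miR-1 3.32-fold and bta-miR-133a 4.27-fold.

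Between SS and NS none of the 5 members was called in limma (calls needed a log2 difference beyond 1 either way at an adjusted p below 0.1), as was the case for 0% of the 245 miRNAs, although 16.3% of them had an unadjusted p under 0.05 and none of the members did. Their exact permutation p values were 0.706 for bta-miR-133a, 0.603 for bta-miR-490, 0.746 for bta-miR-1 and 0.913 for bta-miR-133b. SS and NS ranges were separate for 6.53% of the tested miRNAs and for 0 of the 5 members. The quasi-likelihood and exact tests of edgeR and DESeq2, run on the recovered reads, called no member either (smallest adjusted p of a member 0.211, for bta-miR-499 in DESeq2). With TMM scaling bta-miR-499 had a log2 difference of 1.04 (limma adjusted p = 0.404), and its unadjusted limma p was then below 0.05. The intervals were wide enough to hold a doubling and a halving for bta-miR-133a, bta-miR-490, bta-miR-1 and bta-miR-133b, so differences of that size were not detectable with these libraries.

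The members stood high in the order of differences, where the bulk of the miRNAs was lower in SS. In the deposited values 4 of 5 members had a higher mean log2 value in SS, against 11.8% of the tested miRNAs, and with TMM scaling it was 5 of 5, against 47.8%. Relative to the median miRNA the log2 differences were 0.31 for bta-miR-133a, 1.05 for bta-miR-490, 0.97 for bta-miR-1, 0.75 for bta-miR-133b and 1.18 for bta-miR-499. By log2 difference, bta-miR-499 ranked 8th, bta-miR-490 12th, bta-miR-1 17th, bta-miR-133b 25th and bta-miR-133a 69th of 245. The median of the 5 was 0.27 in the deposited values, 0.97 relative to the median miRNA and 0.94 with TMM scaling, and without SS steer 274 it was -0.12 in the deposited values. All but bta-miR-499 varied together, as given below, and all 5 were chosen with earlier results of these data known. These positions are therefore a description without a test.

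**Figure D2:**
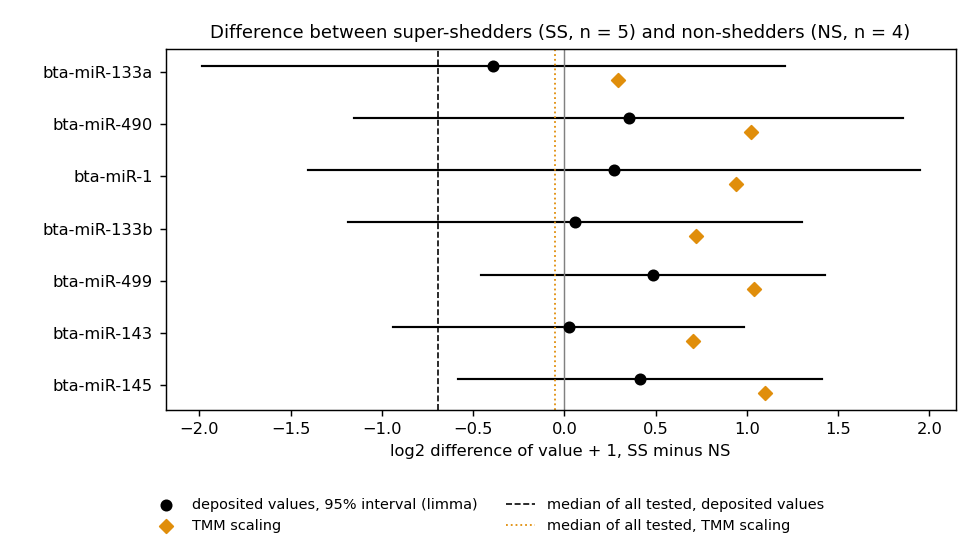
log2 difference of value + 1, SS (n = 5) minus NS (n = 4), for the 5 muscle miRNAs and for bta-miR-143 and bta-miR-145. Black points and bars are limma estimates with 95% intervals in the deposited values, orange diamonds are estimates after TMM scaling, and the dashed and dotted lines are the medians of the 245 tested miRNAs (-0.70 and -0.05). Every bar crosses 0, and every point lies above the median line of its own scaling.

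Other muscle miRNAs from lists were read beside them. bta-miR-143 and bta-miR-145, made from a common cluster and typical of smooth muscle, had log2 differences of 0.02 and 0.42 (limma adjusted p = 0.981 and 0.570), 0.72 and 1.11 relative to the median miRNA. bta-miR-145 averaged 2042 ± 926 CPM over the 5 SS libraries and 1408 ± 312 CPM over the 4 NS libraries (mean ± SD). Among miRNAs of striated muscle and heart, bta-miR-208a, which lies in a cardiac myosin gene in mammals, had 1 read in 1 library, and bta-miR-208b, of slow myosin, had 6 reads in 3 libraries. bta-miR-206, the skeletal muscle relative of miR-1, was looked up and had no row in the deposited table, so no value can be given. bta-miR-486, found in muscle and in red blood cells, averaged 389 ± 146 CPM over the 5 SS libraries (SD) and had 244 to 2391 CPM in NS, where steer 242 was the high library (log2 difference -0.56, limma adjusted p = 0.581).

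Ratios of 2 miRNAs within a library do not depend on the scaling, so the makeup of the muscle miRNAs was compared through them. The ratio of bta-miR-490 to bta-miR-133a separated the groups most. In SS, bta-miR-490 reached 8.10% of bta-miR-133a in steer 274, 23.1% in steer 287, 18.8% in steer 294, 16.4% in steer 299 and 13.8% in steer 310. In NS it reached 10.7% in steer 108, 8.60% in steer 152, 11.4% in steer 165 and 6.30% in steer 242. Thus all NS libraries were exceeded by 4 of the 5 SS libraries, and SS steer 274 lay among the NS libraries. The mean log2 ratio differed by 0.75 (1.68-fold, exact permutation p = 0.0714, BH-adjusted p = 0.349 over 6 ratios), and by 0.58 to 0.97 when each library was left out.

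The ratio of the cluster partners bta-miR-133a and bta-miR-1 has bta-miR-133a on top, where the bta-miR-490 ratio has it below. A negative difference here thus also means less bta-miR-133a relative to its partner in SS. bta-miR-133a was 23.6, 29.9, 24.5, 14.4 and 18.0 times as abundant as bta-miR-1 in SS steers 274, 287, 294, 299 and 310. In NS steers 108, 152, 165 and 242 it was 61.0, 34.7, 20.1 and 29.5 times as abundant. Only SS steers 299 and 310 lay below every NS library, and the mean ratios ± SD were 22.1 ± 6.01 for SS and 36.3 ± 17.5 for NS. The log2 difference was -0.65 (exact permutation p = 0.119, BH-adjusted p = 0.349) and -0.36 without NS steer 108. The ratios of SS steer 299 and NS steer 108 were the lowest and the highest of the 9, with 95% counting intervals of 12.5 to 16.7 and 39.7 to 98.9 that do not cover noise between biopsies or libraries.

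bta-miR-133b amounted to 2.03% to 6.24% of bta-miR-133a in SS and to 1.72% to 3.87% in NS, highest in SS steers 287 and 294 (log2 difference 0.44, exact permutation p = 0.317). bta-miR-499 amounted to 0.268% to 4.08% of bta-miR-133a in SS and to 0.156% to 1.45% in NS (log2 difference 1.03, exact permutation p = 0.349), and without SS steer 294, which held the 4.08%, the difference was 0.40. Set against the smooth muscle pair, bta-miR-133a was 0.0746% to 0.345% of bta-miR-143 in SS and 0.151% to 0.396% in NS (log2 difference -0.41, exact permutation p = 0.302, -0.11 without NS steer 108). It was 17.9% to 79.4% of bta-miR-145 in SS and 33.1% to 108% in NS (log2 difference -0.81, exact permutation p = 0.222). All 6 ratios hold bta-miR-133a, so they are not independent. In each, the mean log2 level of bta-miR-133a relative to the other miRNA was lower in SS. All 6 had a BH-adjusted p of 0.349.

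**Figure D3:**
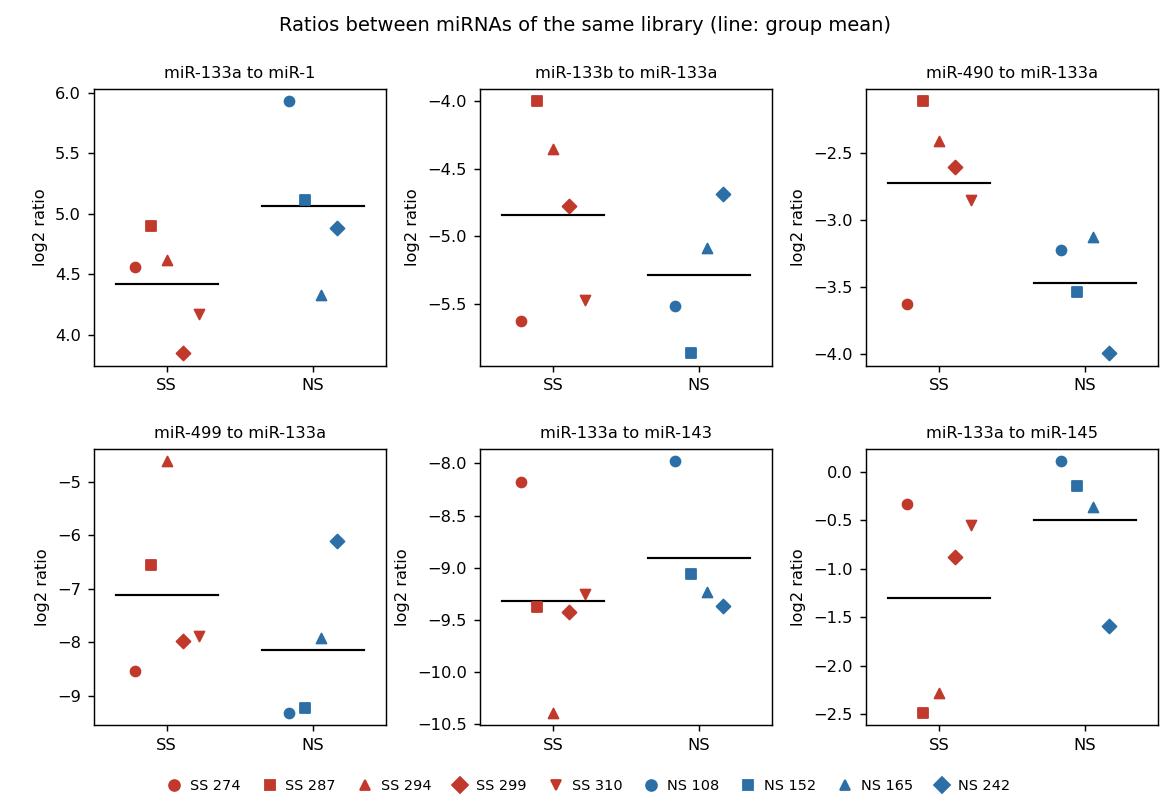
log2 ratio of 2 miRNAs of the same library in 6 panels, SS (n = 5, red) left of NS (n = 4, blue), with a marker for each steer and a line at the group mean. For miR-490 to miR-133a, 4 of the 5 SS libraries lie above all NS libraries and SS steer 274 lies among them, and in the other panels the groups overlap more widely.

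Across the 9 libraries bta-miR-1, bta-miR-133a, bta-miR-133b and bta-miR-490 were high or low in the same steers, and bta-miR-499 did not follow them. SS steer 274 was highest for bta-miR-133a, bta-miR-1 and bta-miR-133b and second for bta-miR-490, while SS steer 294 was lowest for the first 3 of these and second lowest for bta-miR-490. On log2(CPM + 1), all 6 pairs among these 4 miRNAs were correlated (n = 9, BH adjustment over the 10 pairs of the 5 members, exact permutation tests). How often pairs of other tested miRNAs correlate as closely was not examined, and all CPM of a library share 1 denominator. The values are therefore not a trait shown to be particular to these miRNAs. The pair bta-miR-133b and bta-miR-490 had Pearson's r = 0.879 (exact permutation p = 0.00119, adjusted p = 0.00568) and Spearman's rho = 0.833 (exact permutation p = 0.00827, adjusted p = 0.0276). The cluster partners bta-miR-1 and bta-miR-133a had r = 0.876 (exact permutation p = 0.00170, adjusted p = 0.00568) and rho = 0.833 (exact permutation p = 0.00827, adjusted p = 0.0276). For bta-miR-133a and bta-miR-490 r was 0.860 (exact permutation p = 0.00169, adjusted p = 0.00568) and rho 0.883 (exact permutation p = 0.00308, adjusted p = 0.0276).

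The other 3 of these pairs were as follows. bta-miR-133a and bta-miR-133b had r = 0.868 (exact permutation p = 0.00289, adjusted p = 0.00723) and rho = 0.733 (exact permutation p = 0.0311, adjusted p = 0.0614). Some bta-miR-133b reads may belong to bta-miR-133a, as said above, and the part of such reads in this relation was not tested. bta-miR-1 and bta-miR-490 had r = 0.816 (exact permutation p = 0.00570, adjusted p = 0.0114) and rho = 0.800 (exact permutation p = 0.0138, adjusted p = 0.0346). bta-miR-1 and bta-miR-133b had r = 0.798 (exact permutation p = 0.00903, adjusted p = 0.0151) and rho = 0.717 (exact permutation p = 0.0369, adjusted p = 0.0614). Most of these relations leaned on the extreme steers. For bta-miR-133b with bta-miR-490, r stayed at 0.876 without its 2 farthest libraries, SS steer 294 and NS steer 152. Leaving libraries out also makes the threshold harder to pass. Without the 2 libraries farthest from the median of the first miRNA, mostly SS steers 274 and 294, r was 0.417 to 0.876 and no pair passed (smallest adjusted p = 0.0655). Without SS steer 294 alone r was 0.612 to 0.819 and again no pair passed after adjustment (smallest adjusted p = 0.0553). With TMM scaling r was 0.917 to 0.960 for the 6 pairs.

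For bta-miR-499, r with the other members was -0.33 with bta-miR-133a, -0.30 with bta-miR-490, -0.14 with bta-miR-1 and -0.08 with bta-miR-133b, none past the threshold (exact permutation p = 0.379, 0.430, 0.717 and 0.834, adjusted p = 0.537, 0.537, 0.796 and 0.834). Spearman's rho was -0.200, -0.200, -0.083 and -0.033 (exact permutation p = 0.613, 0.613, 0.843 and 0.948, adjusted p = 0.767, 0.767, 0.937 and 0.948). Without the 2 libraries farthest from the median, r for these pairs was -0.53, 0.54, -0.17 and -0.32, and with TMM scaling all 4 were above 0, at 0.436 to 0.616. SS steer 294, lowest for bta-miR-133a, was among the highest for bta-miR-499. With 2 to 32 reads per library, counting error alone spreads the values of bta-miR-499, and its part in the low correlation was not tested.

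**Figure D4:**
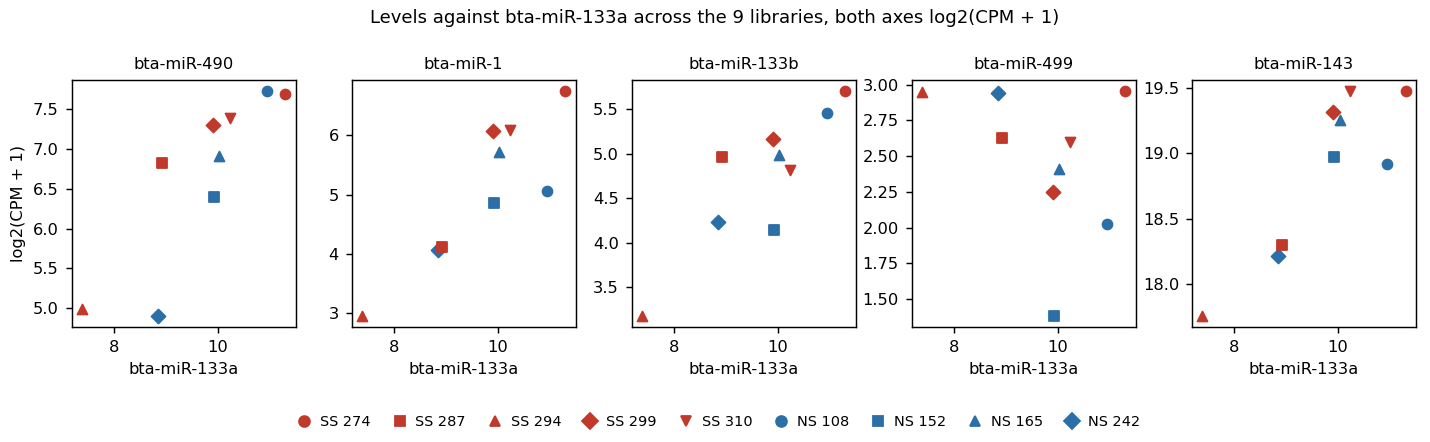
log2(CPM + 1) of 4 miRNAs of the set and of bta-miR-143 (vertical) against bta-miR-133a (horizontal) in the 9 libraries, SS in red and NS in blue, with a marker for each steer. bta-miR-490, bta-miR-1 and bta-miR-133b run along with bta-miR-133a (r = 0.860, 0.876 and 0.868), and bta-miR-499 does not (r = -0.33).

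A muscle score, the mean of the 5 members after each was standardized over the 9 libraries, was highest in SS steer 274 (1.17 SD units) and lowest in SS steer 294 (-1.27). It was -0.15, 0.34 and 0.46 in SS steers 287, 299 and 310, and 0.42, -0.63, 0.25 and -0.59 in NS steers 108, 152, 165 and 242. Of the 240 other tested miRNAs, those most like it over the 9 libraries were bta-miR-143 (r = 0.844, rho = 0.817), bta-miR-145 (r = 0.804, rho = 0.783), bta-miR-29d-5p (r = 0.753, rho = 0.750), bta-miR-193a-5p (r = 0.735, rho = 0.717) and bta-miR-193b (r = 0.726, rho = 0.617). The first 2 are the smooth muscle pair, and all CPM of a library share 1 denominator, in which bta-miR-143 is the largest part. With TMM scaling bta-miR-143 and bta-miR-145 were at ranks 2 and 4 (r = 0.956 and 0.944), and bta-miR-27b, at rank 18 with r = 0.266 in the deposited values, moved to rank 1 (r = 0.990).

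Relations of the score with marker miRNAs of other tissues ran the other way. With bta-miR-192, a miRNA of enterocytes, r was -0.72 and rho -0.750, and with bta-miR-150, a miRNA of mature lymphocytes, r was -0.66 and rho -0.733. SS steer 274, the highest for the score, held 3305 CPM of bta-miR-192, and SS steer 294, the lowest, held 271247 CPM. Without the 2 libraries farthest from the median of each miRNA, r was 0.606 with bta-miR-143, 0.410 with bta-miR-145, -0.16 with bta-miR-192 and -0.76 with bta-miR-150, so the relation with bta-miR-192 rested on SS steers 274 and 294. With TMM scaling r was -0.42 with bta-miR-192 and -0.87 with bta-miR-150. All these values are a description of 9 libraries that share a denominator. Nothing is read from their p values, since the members and lists were chosen with earlier results of these data known.

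Marker miRNAs of the other tissues in the wall were read from the same fit. The 9 epithelial miRNAs summed to 4276 to 401685 CPM in SS and 25250 to 134093 CPM in NS. Their median log2 difference was -0.84, and 9 of 9 had a lower mean log2 value in SS, where 216 of all 245 tested miRNAs did (with TMM scaling the median was -0.17 and 3 of 9 were higher). In mean CPM, bta-miR-141, bta-miR-192, bta-miR-194 and bta-miR-215 were higher in SS and the other epithelial miRNAs lower. The 5 lymphocyte miRNAs summed to 453 to 16332 CPM in SS and 3439 to 42598 CPM in NS, with a median of -1.62 and 5 of 5 lower (-0.94 and 1 of 5 higher with TMM scaling). The 3 mesenchymal miRNAs summed to 1034 to 3027 CPM in SS and 2568 to 10297 CPM in NS, with a median of -0.89 and 3 of 3 lower (-0.22 and 1 of 3 higher with TMM scaling). Of 4 neuronal miRNAs 2 were tested, with a median of -0.51 and both lower, which turned to 0.15 and both higher with TMM scaling. The untested bta-miR-124a=bta-miR-124b was at 0 in NS steers 108 and 242, the 2 libraries with the fewest reads. Their upper 95% counting limits were 5.67 and 4.11 CPM, and SS held 0.225 to 4.71 CPM. The muscle wall pair had a median of 0.22 and the 5 members 0.27, against 0.90 and 0.94 with TMM scaling. None of the list miRNAs was called in limma. The part of the tissue makeup of each biopsy in the muscle miRNA levels was not tested.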

How the data were processed

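Sample titles gave the group and the number of each steer. The reads of the TruSeq small RNA libraries were assigned by the authors to miRBase miRNAs with the sRNA toolbox (Bowtie and edgeR are named in the submitters' processing notes). Their versions were not stated. The deposited values, called CPM or RPM by the authors, were treated as a read-based signal, because each column sums to 1024945 to 1089433. All values (100%, largest deviation 1.07e-08 reads) were whole reads times a step per library, which gave library totals, which need not be all reads of a library. All columns were used (0 left out).

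SS were compared with NS on log2(CPM + 1), which understates changes of low miRNAs, with limma 3.58.1 (R 4.3.3), a trended prior and Benjamini-Hochberg (BH) adjustment over the 245 miRNAs, with the study's thresholds. Log2 differences are SS minus NS. The count tests of edgeR 4.0.16 and DESeq2 1.42.0 on recovered reads were alternatives, and called 0 (quasi-likelihood, 26 at an unadjusted p under 0.05), 1 (exact test) and 9 miRNAs. Exact permutation tests of SS against NS were two-sided over the 126 assignments of 9 libraries to 5 and 4 (smallest possible p 0.00794). With a library left out there were fewer assignments. Exact permutation tests of correlations were two-sided over all orders of the libraries, so their p could be smaller. Ratios and correlations were judged at an adjusted p under 0.05. Intervals are 95% Clopper-Pearson intervals and cover counting error only. The limma step was tested on simulated data.

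The members and lists were chosen with earlier results of these data known. Named miRNAs were the members, the detected muscle miRNAs of the lists, the 5 most correlated with the muscle score, bta-miR-192 and bta-miR-150. No nucleotide sequences were used here, so seeds were not compared.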

Additional observations from a re-analysis of the deposited data

Results flagged for a closer look

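Among 40 groups of values examined, 4 held a library far from the rest of its group. The rule flags about 1 in 20 by chance only for normally distributed values in independent groups. These were unlogged CPM and ratios that share miRNAs and steers, so the 4 cannot be set against that rate. The ratio of bta-miR-499 to bta-miR-133a was 0.0408 in SS steer 294 and 0.00268 to 0.0107 in the other SS libraries, and it rests on 10 reads of bta-miR-499 and 245 of bta-miR-133a. The ratio of bta-miR-133a to bta-miR-143 was 0.00396 in NS steer 108 and 0.00151 to 0.00188 in the other NS libraries. NS steer 242 held 2391 CPM of bta-miR-486, where the rest of NS held 244 to 464 CPM, and 5728 CPM of bta-miR-150, where the rest held 321 to 716 CPM.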

How the results depend on the processing

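No paired analysis was possible because no steer number occurs in both groups. No member was called in limma, edgeR or DESeq2 under any alternative run. Over all miRNAs, the calls were 0 when each library was left out (0 to 0), 1 with no filter, 1 in edgeR's exact test and 9 in DESeq2. The median log2 difference of all tested miRNAs was 0.018 in edgeR's quasi-likelihood test, 0.019 in its exact test and 0.026 in DESeq2, and -0.91 to -0.45 when each library was left out. bta-miR-133a turned above 0 with TMM (0.29), median-of-ratios (0.31), edgeR's quasi-likelihood test (0.90), edgeR's exact test (0.90) and DESeq2 (0.88). Leaving out each library gave -0.83 to 0.15 for bta-miR-133a, -0.12 to 0.83 for bta-miR-1, -0.18 to 0.46 for bta-miR-133b, -0.17 to 0.81 for bta-miR-490, 0.22 to 0.74 for bta-miR-499 and -0.12 to 0.49 for their median. With at least 10 CPM in every library bta-miR-1, bta-miR-133b and bta-miR-499 could not be fitted. The ratios kept their direction with a pseudocount of 1 and without any library. Their adjusted p says nothing of stability, since so few libraries could hardly pass (0.171 for bta-miR-490 to bta-miR-133a without SS steer 274, where the groups separated). The cause of these shifts was not tested.

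Without the 2 farthest libraries, r was 0.644 for bta-miR-1 with bta-miR-133a, 0.417 with bta-miR-133b and 0.658 with bta-miR-490, 0.543 for bta-miR-133a with bta-miR-133b and 0.761 with bta-miR-490, and 0.876 for bta-miR-133b with bta-miR-490, none past the threshold, while bta-miR-490 with bta-miR-499 turned to 0.544. Leaving out each library gave 0.770 to 0.952, 0.612 to 0.876, 0.704 to 0.879, 0.702 to 0.931, 0.778 to 0.916 and 0.819 to 0.959 for the same 6 pairs in that order. With bta-miR-499 it gave -0.41 to 0.13 for bta-miR-1, -0.63 to -0.11 for bta-miR-133a, -0.50 to 0.31 for bta-miR-133b and -0.61 to -0.12 for bta-miR-490, and with TMM 0.616, 0.436, 0.589 and 0.517. Depth limits bta-miR-499 most, with 2 to 32 reads per library.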
